A study of Caenorhabditis elegans with 2 samples.

Results

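The peaks described here are 452 autosomal binding regions of the transcription factor CEH-39, each with its summit at the promoter of exactly 1 protein-coding gene. They were taken from the authors' set of 1244 peaks thresholded by the irreproducible discovery rate (IDR), of which 1026 lay on the 5 autosomes. A peak belonged to the set when its summit fell from 1000 bp upstream to 200 bp downstream of an annotated transcript start of 1 protein-coding gene and of no other. The 452 peaks made up 44.1% of the autosomal peaks (95% exact interval 41.0 to 47.2%) and 36.3% of all IDR peaks. Of the other autosomal peaks, 342 had 2 or more genes within the same reach and 232 had none. The data came from chromatin immunoprecipitation and sequencing (ChIP-seq) of whole Caenorhabditis elegans embryos of mixed stage, with both sexes pooled and the age not known. There was 1 group, the strain OP169, whose genotype is unc-119(ed3) III; wgIs169, with 2 biological replicates. wgIs169 is an integrated transgene for CEH-39 fused to eGFP, and the antibody label reads ceh-39; the strain is 1 line, and no strain without the transgene was analysed here. The values are peak positions, the signal that came with each peak in the authors' lists, and its q-value. Read counts were not used, so sequencing depth is unknown, and each 95% interval below (exact, by Clopper-Pearson) counts peaks or genes and covers counting error only. Neighbouring peaks are not independent of each other.

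CEH-39 is a homeobox protein of the ONECUT family, which binds DNA through a cut domain and a homeodomain and prefers sites built on the core ATCGAT. In C. elegans it is known as an X signal element, one of the X-encoded proteins through which an early embryo reads its number of X chromosomes. Most worm transcripts are trans-spliced, so that their original first bases are replaced by a spliced leader. The annotated start of such a gene is therefore often the splice site and not the place where RNA polymerase began. Worm genes are closely spaced, many share an upstream region with a divergent neighbour, and some follow a neighbour in an operon. A promoter that can be assigned to 1 gene is accordingly one with no other gene's start close by.

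The windows of 101 bp around 10 summits are shown so that windows with and without the ONECUT core can be set side by side. They were drawn from 4 of the 5 autosomes, and stronger members on the other autosome, K04G2.10 and set-10 among them, are not shown. The first 6 have the highest signal among the members there that carry the core and whose window lies upstream of the start and outside exons, and the last 4 have the highest among those without it. Each is written 5′ to 3′ on the coding strand of its gene, with ATCGAT and the word CTGCGTC or its complement GACGCAG in capitals. The distance given is that of the summit from the nearest start, and the coordinates are in WBcel235, the assembly that ce11 names (RefSeq).
cec-4, 371 bp upstream, chrIV:7575297-7575397 (plus strand): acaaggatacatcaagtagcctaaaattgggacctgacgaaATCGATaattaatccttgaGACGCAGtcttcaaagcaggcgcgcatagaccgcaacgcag
ubc-9, 224 bp upstream, chrIV:4650770-4650870 (plus strand): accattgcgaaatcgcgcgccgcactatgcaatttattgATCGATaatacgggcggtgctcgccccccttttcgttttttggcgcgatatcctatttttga
pqn-70, 181 bp upstream, chrV:11228834-11228934 (minus strand): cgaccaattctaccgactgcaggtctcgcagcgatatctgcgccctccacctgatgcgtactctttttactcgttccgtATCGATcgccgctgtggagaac
eor-1, 128 bp upstream, chrIV:4799256-4799356 (minus strand): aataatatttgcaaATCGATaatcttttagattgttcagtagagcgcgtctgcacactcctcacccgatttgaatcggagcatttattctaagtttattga
scc-2, 103 bp upstream, chrII:255249-255349 (minus strand): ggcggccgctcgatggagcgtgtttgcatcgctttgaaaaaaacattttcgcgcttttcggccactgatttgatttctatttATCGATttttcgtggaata
pcf-11, 345 bp upstream, chrIII:5024519-5024619 (plus strand): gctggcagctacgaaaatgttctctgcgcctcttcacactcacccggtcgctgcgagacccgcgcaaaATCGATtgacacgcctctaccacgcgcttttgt
tos-1, 158 bp upstream, chrV:9344311-9344411 (minus strand): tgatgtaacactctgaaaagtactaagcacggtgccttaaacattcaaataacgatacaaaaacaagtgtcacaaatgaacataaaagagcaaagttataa
cdc-48.1, 168 bp upstream, chrII:10563525-10563625 (minus strand): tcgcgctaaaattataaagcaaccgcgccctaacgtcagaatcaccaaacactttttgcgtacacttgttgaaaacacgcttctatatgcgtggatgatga
rpl-3, 276 bp upstream, chrIII:3867528-3867628 (plus strand): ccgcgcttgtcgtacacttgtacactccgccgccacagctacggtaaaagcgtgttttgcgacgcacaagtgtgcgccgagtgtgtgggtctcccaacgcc
cox-5A, 288 bp upstream, chrIII:12905153-12905253 (plus strand): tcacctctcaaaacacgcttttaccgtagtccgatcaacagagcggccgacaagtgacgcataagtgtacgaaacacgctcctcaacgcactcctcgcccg
Signal values of the first 6 were 305 at cec-4, 257 at ubc-9, 230.3 at pqn-70, 203 at eor-1, 183 at scc-2 and 176 at pcf-11. In replicate 1 these peaks had signals of 287, 206, 209.7, 164, 146 and 152, and in replicate 2 of 26.0, 46.7, 31.3, 33.1, 39.4 and 20.2, in the same order. The last 4 had 499 at tos-1, 431 at cdc-48.1, 430 at rpl-3 and 344 at cox-5A, and each was above 80 in replicate 2.

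The peak with the highest signal stood at tos-1, named as a target of splicing, on chromosome V from 9344194 to 9344582 (ce11). It had a signal of 499 in the IDR list, 313 in replicate 1 and 185 in replicate 2, where it was the strongest peak of the whole list. The peak at K04G2.10, an uncharacterized gene on chromosome I, followed with 476, and its values were 432 in replicate 1, at rank 3, and 48.2 in replicate 2, at rank 117. The peak at cdc-48.1, the gene of an AAA ATPase that extracts proteins for degradation, had 431 in the IDR list, 281 in replicate 1 and 143 in replicate 2. At rpl-3, a protein of the large ribosomal subunit, the values were 430 in the IDR list, 333 in replicate 1 and 90.3 in replicate 2. These 4 peaks thus all stood high in replicate 1 but spread over more than 100 ranks in replicate 2.

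The next strongest peaks stood at genes with different roles. The peak at set-10 (395) lay 235 bp upstream of a gene whose symbol places it with the SET-domain genes and whose product carries a MYND-type domain. The peak at gldi-8 (367), which encodes a protein with C2H2-type zinc fingers, lay 43 bp downstream of an inner start. The peak at cox-5A (344), a subunit of cytochrome c oxidase, lay 288 bp upstream of its only annotated start. In replicate 1 the signals at these 3 genes were 327, 296 and 227, and in replicate 2 they were 56.5, 57.6 and 116. Y39E4B.6 (341), rpl-35 (322), cbp-1 (317), rpl-41.2 (315) and lin-36 (309) completed the 12 strongest. cbp-1 encodes the worm homologue of the histone acetyltransferases CBP and p300, and lin-36 is a class B synthetic multivulva gene. Of these 12 peaks, those at K04G2.10 and set-10 held ATCGAT within 50 bp of the summit.

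The members were found on each autosome but were less frequent among the genes of chromosome V. Chromosome I held 109 members, II 98, III 90, IV 86 and V 69. In all, 443 genes had at least 1 such peak, or 2.57% of the 17242 autosomal protein-coding genes. By chromosome the share of genes was 3.72% on I, 2.75% on II, 3.33% on III, 2.59% on IV and 1.36% on V. This was not particular to the members. All autosomal IDR peaks were also fewest on V, at 155 of 1026, where 29.0% of the autosomal genes lie. Members made up 44.5% of the peaks on V, against 44.1% of all autosomal peaks. Summits lay within the middle 50% of the length of a chromosome in 59.7% of members (interval 55.1 to 64.3%), against 56.4% of peaks with 2 or more genes, 51.7% of peaks with none and 55.7% of all autosomal protein-coding genes. That difference from all genes was within the interval.

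Most summits lay a short way upstream of the annotated start. The median was 244 bp upstream, the quartiles were 415 and 126 bp upstream, and 422 of 452 summits, or 93.4% (90.7 to 95.5%), lay upstream of the nearest start. The rule reached 1000 bp upstream but only 200 bp downstream, so a majority upstream was built in. The median also followed the window, at -188.5 bp with 500 bp upstream and -318 bp with 2000 bp. Only the shape inside the window is described here. The 200 bp next to the start held 158 summits (35.0%) and the 200 bp before that held 143 (31.6%). Between 401 and 600 bp there were 53, between 601 and 800 bp 38, and from 801 to 1000 bp 30. The remaining 30 summits lay downstream of the start. Taken by chromosome, the median lay between -224 bp on V and -268 bp on I. Over the matched members it was -245 bp by the summits of replicate 1 and -238.5 bp by those of replicate 2. Signal and distance were nearly unrelated across the 452 peaks (Spearman's rho 0.0398, a description across peaks), and the 113 strongest had a median of -271 bp, against -263 bp for the 113 weakest.

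**Figure D1:**
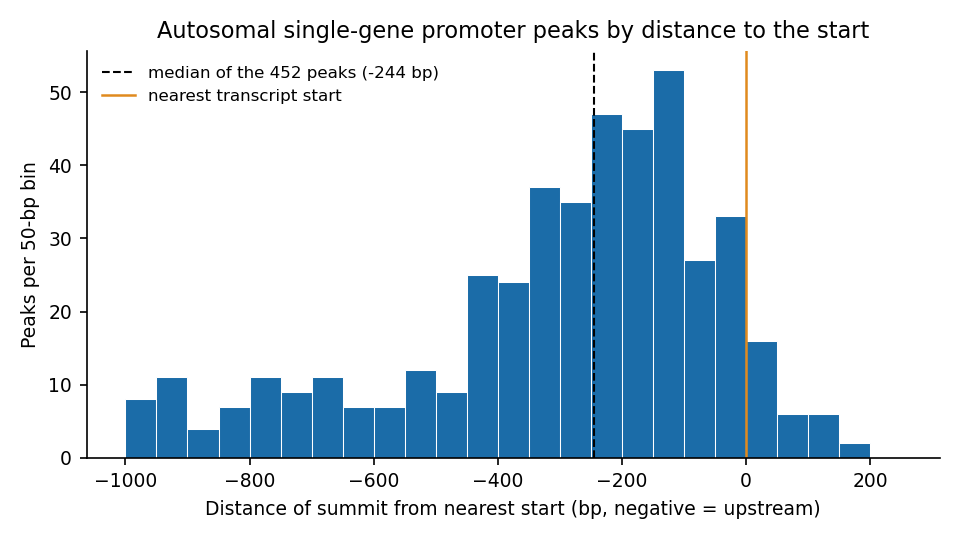
Number of peaks (vertical axis) by distance of the summit from the nearest protein-coding transcript start in bins of 50 bp (horizontal axis, bp, negative upstream). The bars rise within about 450 bp upstream of the start, and the dashed line marks the median of -244 bp. Few summits lie downstream of the start, where the rule reaches only 200 bp.

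The edges of the window cut through a thin part of this distribution. The outermost members were the peaks at dhs-8 (signal 98.0, 999 bp upstream) and mrpl-23 (84.4, 998 bp upstream), and on the other side those at egl-30 (120, 187 bp downstream) and egl-27 (87.6, 177 bp downstream). Just outside stood the peaks whose nearest starts were those of nhr-2 (77.0, at -1016 bp), ppm-2 (78.0, at -1028 bp), col-85 (76.9, 319 bp downstream) and Y45G5AM.7 (84.9, 383 bp downstream). Of all member summits, 358 (79.2%, 75.2 to 82.9%) were intergenic. Another 35 lay in an intron of the member gene and 30 in one of its exons. The other 29 of the 452 lay inside the body of another gene whose own starts were out of reach, 18 in introns and 11 in exons.

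Genes at these peaks had more annotated starts than autosomal genes in general. More than 1 distinct start was annotated for 186 of 443 member genes, or 42.0% (37.3 to 46.7%), against 26.4% of all autosomal protein-coding genes. Genes of peaks with 2 or more genes in reach stood between, at 32.8% of 702. At least 4 starts were annotated for 10.8% of member genes and 4.45% of all autosomal genes. Read the other way, 4.09% of the 4551 genes with more than 1 start were member genes, against 2.03% of the 12691 genes with 1 start. The rule shapes this in part, since each further start adds sequence in which a summit counts. With the outermost start of each gene only, 36.2% of member genes had more than 1 start, and with starts within 50 bp merged the share was 34.3%, against 20.4% of all autosomal genes. Among the 12899 autosomal genes whose promoter window holds no other gene's start, 26.8% had more than 1 start. Member genes were also longer, with a median of 2513 bp against 1964 bp.

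**Figure D2:**
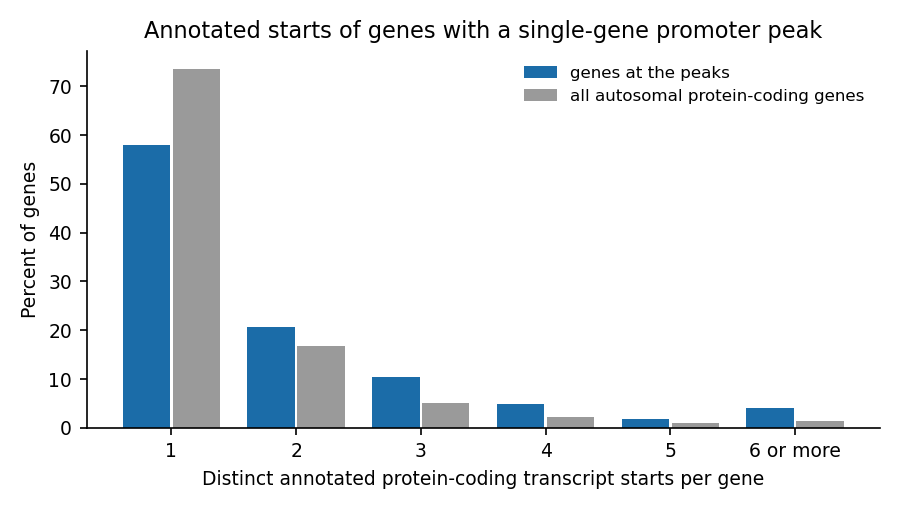
Percent of genes (vertical axis) by number of distinct annotated protein-coding transcript starts (horizontal axis) for the 443 genes at the peaks (blue, left bars) and all 17242 autosomal protein-coding genes (grey, right bars). Genes at the peaks have 1 start in 58.0% of cases against 73.6% of all autosomal genes, and exceed them in every class above 1.

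At 42 peaks the summit was closest to an inner start. They were 22.0% (16.3 to 28.5%) of the 191 peaks at genes with more than 1 start, and the start in question lay a median of 1287 bp inside the outermost one, from 65 to 14719 bp. At 27 of them it lay more than 1000 bp inside. The strongest stood at gldi-8, 1045 bp inside. The peak at pbrm-1 (signal 296), the polybromo subunit of a SWI/SNF chromatin remodeller, lay 761 bp upstream of a start 5881 bp inside the gene. The peak at zfp-1 (248), a chromatin protein related to AF10, lay 681 bp upstream of a start 11284 bp inside. Both summits were in introns of their own genes. Inner peaks had a median signal of 106, close to the 105 of peaks at outermost starts, and a median position of -207 bp against -246 bp.

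The gene with the most starts was nurf-1, a subunit of the NURF nucleosome remodelling complex, with 16. It had a peak 32 bp upstream of a start 14719 bp inside (signal 240; 160 in replicate 1 and 80.0 in replicate 2) and another 336 bp upstream of a start 9339 bp inside (123; 112 in replicate 1 and 13.5 in replicate 2). The peaks at Y43F8B.2 (189), scpl-3 (184), scc-2 (183), which encodes the cohesin loader, and the p38 kinase gene pmk-2 (172) were also nearest to inner starts, 10249, 1723, 8467 and 3721 bp inside. The last 2 were chosen after their values were seen, because scc-2 is among the sequences above.

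Of the 443 genes, 434 had 1 peak and 9 had a pair. The strongest pair was at cbp-1, with peaks 909 bp upstream (317) and 105 bp upstream (99.5). In replicate 1 these had signals of 289 and 101, and in replicate 2 48.4, at rank 116, and 14.8, at rank 5645. The 2 peaks at snr-4, which encodes the SmD2 protein of splicing particles, lay 346 bp (231) and 546 bp (86.2) upstream of its only start, and in replicate 2 they ranked 48 and 22716. At scpl-3, a phosphatase-like gene, the peaks lay near different starts (184 and 132), both held ATCGAT, and the weaker ranked 546 in replicate 2 where the stronger ranked 13900. eif-2Bgamma, a subunit of the translation factor eIF2B, had peaks 932 bp (131) and 134 bp (76.8) upstream. T02E1.2 had peaks of 124 and 82.5. In replicate 2 the peaks of each of these 5 genes and of nurf-1 stood more than 1000 ranks apart. The other 3 genes were egl-27, T24C4.2 and snrp-3, and both snrp-3 peaks overlapped the same peak of replicate 2, at rank 3389.

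The nearest upstream neighbour of a member gene was mostly on the same strand. It was tandem in 277 of 443 genes, or 62.5% (57.8 to 67.1%), against 65.6% of the 12899 genes with a single-gene promoter window and 50.6% of all autosomal protein-coding genes. Genes with a close divergent neighbour are set apart by the rule, so the second of these shares is not a like comparison. The gap to a tandem neighbour had a median of 590 bp at member genes and 801 bp at the 8467 tandem genes with a single-gene promoter window. It was under 500 bp at 118 member genes, or 26.6% (22.6 to 31.0%), against 23.9% of the genes with such a window. The strongest of these peaks lay at set-10, 432 bp from F33H2.8, at ubc-9, the SUMO-conjugating enzyme, 389 bp from F29B9.7, at pir-2, a phosphatase gene, 181 bp from F54C8.6, and at tba-2, an alpha-tubulin, 420 bp from pbs-2. Their summits lay 235, 224, 1 and 142 bp upstream of their own starts.

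At 22 members (4.87%, 3.08 to 7.28%) a gene for a small nuclear or nucleolar RNA lay within 300 bp of the summit, and its start was often closer than that of the protein-coding gene. The share was 2.63% of peaks with 2 or more genes and 11.6% of peaks with none. By annotated type it was a snoRNA gene at 14 peaks and an snRNA gene at 8, of which both snr-4 peaks lay at the same one, and it was a tRNA gene at none. In 17 of the 22 the summit lay upstream of the small RNA gene, always within 100 bp and at a median of 61 bp. The peak assigned to H41C03.3 (232), 960 bp upstream of that gene, lay 48 bp upstream of sls-2.1, a spliced leader RNA gene. The stronger snr-4 peak lay 49 bp upstream of the snRNA gene T11F9.15, and the peak assigned to egg-5 (173) lay 28 bp upstream of sls-2.4. Among members of the lists below, snr-4, cox-6A, eif-2Bgamma, his-72, mrpl-23, mrps-28 and sre-23 had such a gene at a peak. None of the 22 held ATCGAT within 50 bp of the summit, which allows a share of up to 15.4% by the exact interval. Of the other 430 members 81 held it (18.8%, 15.25 to 22.9%), so the intervals overlap slightly. Which of the neighbouring genes a peak belongs to was not tested.

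Genes of the cytosolic ribosome were frequent among the members. Of 80 autosomal genes in the list, 18 were members, or 22.5% (13.9 to 33.2%), where 2.57% of all autosomal protein-coding genes were. Of the 80, 44 were instead at peaks with 2 or more genes in reach, so that 62 were at either kind. Of the 29 ribosomal protein genes with a single-gene promoter window, all 18 members among them, 62.1% had a peak, against 3.19% of the 12899 genes of that kind. rpl-3 (430), rpl-35 (322) and rpl-41.2 (315) led the list, and rps-11 (80.1) had the lowest signal. Their summits had a median distance of -274 bp and none held ATCGAT within 50 bp, against 18.7% (15.1 to 22.7%) of the other 434 members. The 18 peaks with none allow a share of up to 18.5%, so the intervals overlap. With the IDR list replaced by the 1244 strongest peaks of 1 replicate, replicate 2 alone gave 12 ribosomal genes among 377 member genes and replicate 1 alone 18 among 442. One of the 18, rpl-24.2, is annotated as a ribosome biogenesis protein.

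Other lists of basic cell functions mostly had shares above the background of 2.57%, with wide intervals. For translation factors, splicing, ubiquitin conjugation and RNA helicases with decay factors the whole interval lay above it, and for the others in this paragraph it included 2.57%. Translation factors had 4 of 37, led by eif-3.C (185) and eif-3.B (145), subunits of the initiation factor eIF3. Splicing and snRNP proteins had 6 of 54, among them snr-4 (231) and the SR proteins rsp-8 (204) and rsp-6 (184). Ubiquitin conjugation had 7 of 59, led by ubc-9 (257), ubc-3 (148) and the ubiquitin gene ubq-1 (119). RNA helicases and decay factors had 4 of 37, with ntl-2 (250) and ntl-11 (144) of the CCR4-NOT deadenylase and nol-56 (168), a nucleolar protein. Its symbol alone places nol-56 there, and the interval of the list without it was not computed. The respiratory chain had 4 of 47, with cox-5A (344), cox-5B (162) and cyc-1 (104). Mitochondrial ribosomal proteins had 5 of 70, led by mrpl-28 (143) and mrpl-55 (111), and the secretory pathway 6 of 88, led by vps-60 (172), vps-25 (125) and trap-1 (119). Chaperones had 3 of 63, namely the Hsc70 gene hsp-1 (271), the co-chaperone gene sti-1 (176) and dnj-9 (118). Nuclear pore and transport genes had 2 of 40, the importin gene ima-3 (194) and the nucleoporin gene npp-1 (129). Proteasome subunits had 1 of 33, rpn-11 (86.6), RNA polymerase and mediator 2 of 67, mdt-22 (90.1) and ama-1 (78.0), and tubulins with motor proteins 1 of 34, tba-2 (237). No aminoacyl-tRNA synthetase (0 of 32) and no vacuolar ATPase subunit (0 of 17) was a member. From replicate 2 alone, splicing, ubiquitin conjugation and the respiratory chain had 2 members each, and from replicate 1 alone mitochondrial ribosomal proteins had 3. With a window of 2000 bp upstream, splicing and the secretory pathway had 2 members each, mitochondrial ribosomal proteins 3 and RNA helicases with decay factors 1.

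Chromatin and cell cycle genes also had shares above the background. Chromatin modifiers had 10 of 79, or 12.7% (6.24 to 22.0%). At peaks with 2 or more genes there were 7 of the 79, where 702 of all 17242 autosomal genes stood. The 10 members were led by set-10, the chromodomain helicase gene chd-7 (239) and the SWI/SNF subunit gene swsn-3 (206). They also included swsn-1 (179), spr-4 (127), met-1 (127), set-1 (105), swsn-9 (103), set-4 (103) and hmg-1.2 (78.2). The cell cycle list had 7 of 69, or 10.1% (4.18 to 19.8%). It was led by cdc-48.1, which its symbol alone places there, pcn-1 (163), the sliding clamp of DNA replication, and the kinase gene cdk-7 (134), and further held plk-1 (92.7), cya-1 (90.6), mcm-5 (86.7) and cdc-42 (82.3). Of 8 autosomal dosage compensation genes 3 were members, dpy-30 (144), dpy-27 (94.8) and dpy-26 (83.8). Histone genes had 4 of 76, with an interval of 1.45 to 12.9% that included the background, and his-37 (185), his-72 (103) and his-15 (92.7) were the strongest. Histone copies are nearly identical, so the gene behind such a peak is uncertain. From replicate 2 alone there were 2 histone members and 1 dosage compensation member, against 9 chromatin and 7 cell cycle members. With a window of 2000 bp upstream there were 3 cell cycle members and 1 histone member.

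Several large gene families had few members or none. Cuticle collagens had 0 of 129, which allows up to 2.82% by the exact interval. Cytochrome P450 and glucuronosyltransferase genes had 0 of 130, which allows up to 2.80%. Both intervals included the background of 2.57%. Chemoreceptors had 1 of 1276, sre-23 (114), whose summit lay 75 bp upstream of a snoRNA gene. C-type lectins had 1 of 237, clec-196 (78.1), neuropeptides and insulins 1 of 106, ins-34 (163), and nuclear hormone receptors 3 of 246, nhr-86 (91.7), nhr-34 (87.8) and nhr-49 (87.7). The intervals of the neuropeptide list (0.0239 to 5.14%) and of the receptor list (0.252 to 3.52%) also included 2.57%. F-box and BTB-MATH genes had 8 of 395, or 2.03% (0.878 to 3.95%), led by fbxb-41 (110), fbxb-72 (101) and fbxa-83 (97.7), and from replicate 2 alone that list had 4 members. Of 45 ceh homeobox genes, 4.44% were members (0.543 to 15.1%), namely ceh-20 (128), the Pbx homologue, and ceh-86 (79.4). In all, 18 of the 27 lists had a share above the background of 2.57% and 4 had no member, and 106 of the 452 peaks stood at a gene in a list. A peak with starts of a second gene in reach is not counted, so these shares also depend on how the genes of a list are spaced.

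**Figure D3:**
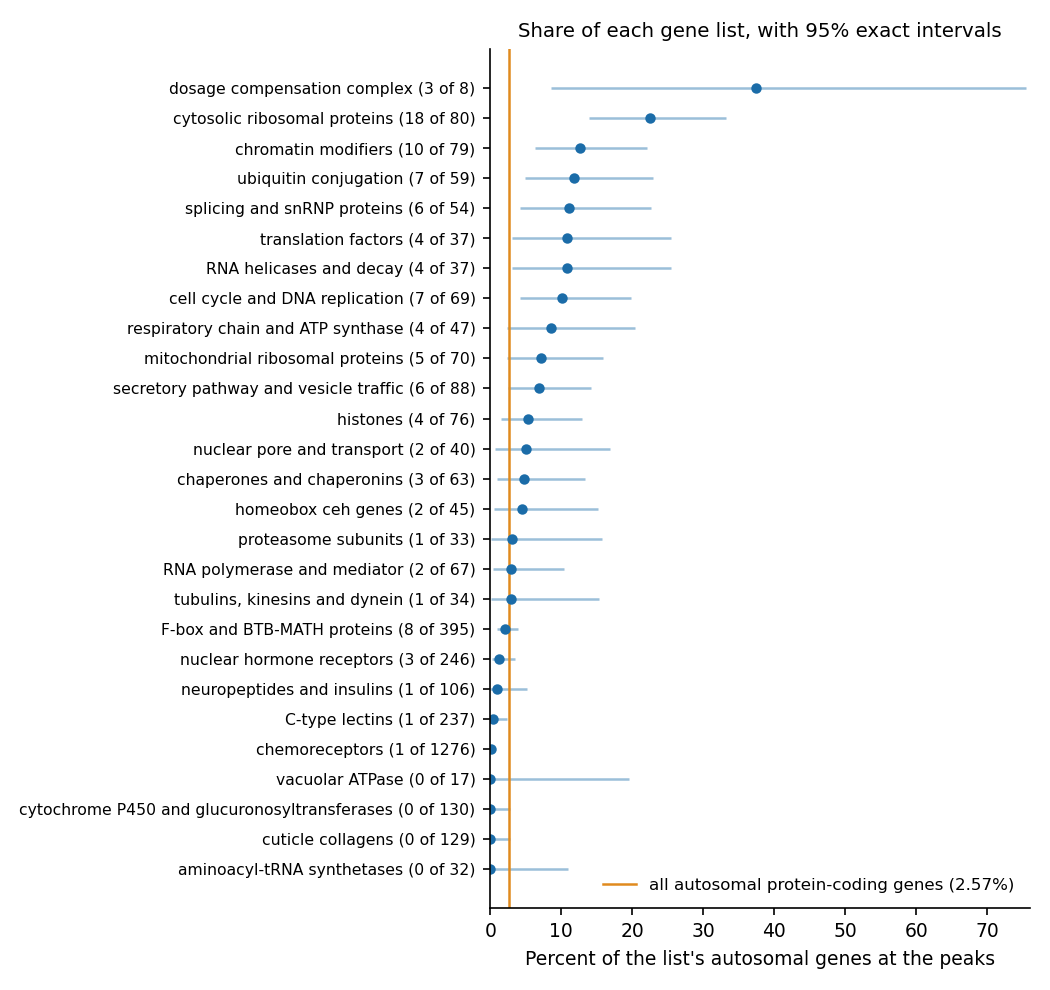
Percent of the autosomal genes of each list that are at the peaks (points, horizontal axis), with 95% exact intervals over genes (lines), and the numbers beside each name. The vertical line marks the 2.57% of all autosomal protein-coding genes; cytosolic ribosomal proteins lie at 22.5%, and collagens at 0.

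The members were matched to the replicate lists by an overlap of at least 1 bp. These lists hold background by construction, with 30000 peaks in replicate 1 and 27014 in replicate 2, of which 3958 and 790 had a q-value under 0.05. A peak of replicate 1 overlapped 449 members and a peak of replicate 2 overlapped 422. The matched peak had a q-value under 0.05 for 449 members (99.3%) in replicate 1, where 99.4% of all autosomal IDR peaks had one. In replicate 2 it did for 182 members, or 40.3% (35.7 to 44.9%), against 45.9% of all autosomal IDR peaks. Both replicates passed for 180 members, replicate 1 alone for 269, replicate 2 alone for 2 and neither for 1. The IDR list was derived from these lists and from the pooled one, so membership was not independent of them.

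In replicate 2 members passed less often than autosomal peaks with 2 or more genes in reach. The difference was 40.3% against 52.3% (179 of 342; two-sided Fisher's exact test over peaks, adjusted p = 0.00368 over 4 comparisons). Against peaks with no gene it was 40.3% against 47.4% (110 of 232), which missed the threshold (Fisher's exact test, adjusted p = 0.173). In replicate 1 the shares were 99.3% against 99.7% and 99.1% (Fisher's exact test, adjusted p = 0.851 and 1). The IDR list was derived with both replicate lists, so these tests were not independent of the selection of peaks. Median signal of the matched peaks in replicate 2 had the order of the passing shares there. It was 22.7 in members, 25.6 in peaks with none and 27.2 in peaks with 2 or more genes. Signal in the IDR list had another order of classes. Its median was 106 in members (quartiles 87.6 and 136), 119 in peaks with 2 or more genes and 102 in peaks with none, and the 100 strongest IDR peaks included 31 members, 38 peaks with 2 or more genes and 10 with none on the autosomes. Of all 1244 IDR peaks, 452 (36.3%) were members, and on the autosomes 342 had 2 or more genes and 232 had none. The part of signal in the difference of passing shares was not tested.

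Passing in replicate 2 followed signal in the IDR list. Of the 113 strongest members 75.2% passed, of the next 113 38.9%, of the third 113 23.9% and of the weakest 113 23.0%, while in replicate 1 the lowest of these shares was 98.2%. Ranks had a median of 639 in replicate 1 and 1152.5 in replicate 2. Among the 1244 strongest peaks of each list, the number in the IDR list, there were 406 members (89.8%) in replicate 1 and 219 (48.5%) in replicate 2. The same shares were not computed for other autosomal peaks, so they do not set the members apart. Across the 419 members matched in both lists Spearman's rho between the signals was 0.281, and Pearson's r of their log2 values was 0.416. The same rho was 0.433 over 330 peaks with 2 or more genes and 0.0149 over 216 peaks with none. Among the 226 members with the highest signal in the IDR list rho was 0.330 (215 matched in both lists), and among the other 226 it was -0.432 (204 matched). These are descriptions across peaks that share 2 libraries and a lower limit on pooled signal. Signal in the IDR list gave a rho of 0.898 with replicate 1 and 0.506 with replicate 2.

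**Figure D4:**
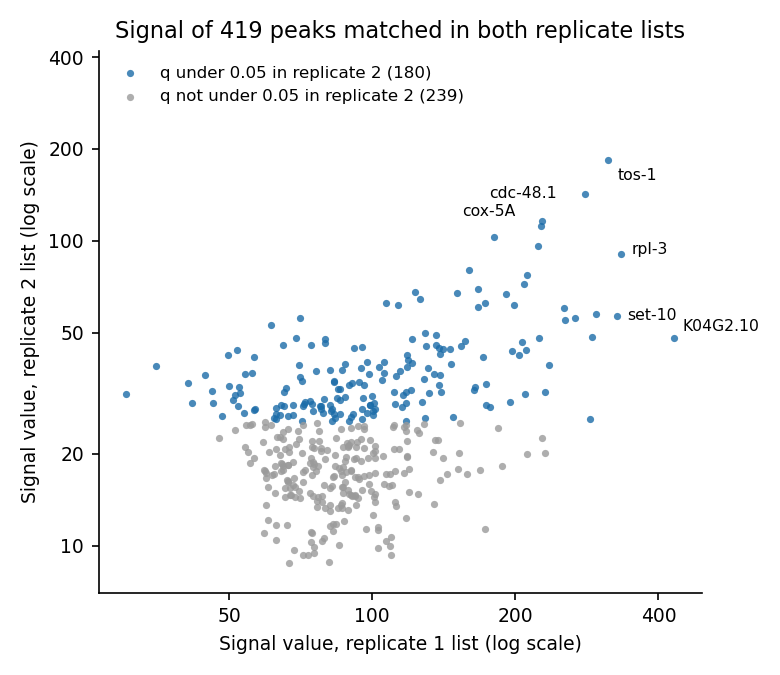
Signal value of the overlapping peak in replicate 2 (vertical axis, log scale) against replicate 1 (horizontal axis, log scale) for the 419 peaks matched in both lists, with the 180 that have a q-value under 0.05 in replicate 2 in blue and the other 239 in grey. tos-1 and cdc-48.1 are high in both, while K04G2.10 is highest in replicate 1 and lies lower in replicate 2.

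Single genes show how far the replicates went apart. In replicate 1 the best ranks belonged to K04G2.10, at 3, rpl-3, at 10, and set-10, at 12, and in replicate 2 to tos-1, at 1, cdc-48.1, at 3, and cox-5A, at 6. In replicate 1 the last ranks were those of sup-26 (2342), F52C12.2 (2871) and EEED8.15 (3410), whose peaks ranked 340, 241 and 433 in replicate 2. In replicate 2 the last ranks were those of ZK688.7 (23635), F59C6.18 (26674) and ivph-3 (26870), whose peaks ranked 383, 763 and 1068 in replicate 1. These peaks ranked last in 1 list were inside the first 1244 of the other. Members were selected through both lists and the pooled one, so this does not measure how well the replicates agree. The 30 members with no peak in replicate 2 included rsp-6 and ins-34, with signals of 174 and 142 in replicate 1. Summits were closer in replicate 1, with a median offset of 12 bp from the IDR summit against 30 bp in replicate 2.

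The ONECUT core was found at more member summits than flanks. ATCGAT, its own complement, lay within 50 bp of the summit in 81 of 452 members, or 17.9% (14.5 to 21.8%). The window of the same length 350 bp to the side of lower coordinates held it in 22 (4.87%), and that on the other side in 34 (7.52%). The ratio to the lower side was 3.68 (two-sided exact McNemar test over peaks, adjusted p = 1.45e-09 over 6 words). It was 2.38 to the other side (exact McNemar test, adjusted p = 6.04e-06) and 2.21 with the IDR list replaced by the 1244 strongest peaks of replicate 2 (adjusted p = 0.00762). The same window 244 bp upstream of the outermost start of all 17242 autosomal genes held it in 3.89%. The 91 occurrences had a median of 20.5 bp from the summit and -210.5 bp from the start. The strongest members with the core were K04G2.10, set-10, cec-4 (305), a chromodomain protein of the nuclear periphery, pbrm-1, F33H2.3 (279), alg-2 (274), an Argonaute of the microRNA pathway, ubc-9 (257) and pir-2 (249). The core lay at 23.0% of the 113 members with the highest signal and at 17.7%, 14.2% and 16.8% of the following groups of 113. Median signal was 113 over the 81 members with it, against 105 over the 371 without. In replicate 2, 29 of the 81 (35.8%) had a q-value under 0.05, against 41.2% of those without it.

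A related core, ATTGAT, was searched on both strands and lay at 30 summits (6.64%) against 62 lower flanks (13.7%; exact McNemar test, adjusted p = 8.46e-04). The word CTGCGTC, searched as CTGCGTC or GACGCAG, lay at 63 summits, or 13.9% (10.9 to 17.5%), against 1 lower and 6 upper flanks (exact McNemar test against the lower flank, adjusted p = 4.23e-17). It was present in 1.31% of the promoter windows of all autosomal genes. GAGAGA or its complement lay at 109 summits (24.1%) against 31 lower flanks (6.86%; exact McNemar test, adjusted p = 3.64e-12) and 6.30% of promoter windows. At some members, among them rpl-41.2, nurf-1, zen-4 and rps-11, GAGAGA and CTGCGTC overlapped on opposite strands. The counts of these words are therefore not separate, and the number of such members was not counted. All 6 words were chosen with earlier results of these data known, so their excess or deficit against the flanks is not independent evidence. TATAAA lay at 23 summits against 56 flanks and TTTCAG, the consensus of the splice acceptor, at 26 against 86 (exact McNemar tests, adjusted p = 1.35e-04 and 5.68e-09). Summit windows had a median GC content of 46.5%, against 34.7% in the lower flanks and 33.7% in all promoter windows, and its part in these counts was not tested. With replicate 2 alone (its 1244 strongest peaks), the ratio of summit to lower flank was 12.7 for CTGCGTC, against 63 in the IDR list, and 2.28 for GAGAGA, against 3.52 (exact McNemar tests, adjusted p = 6.29e-08 and 7.69e-04). With peaks of 1 replicate list alone in place of the IDR list, the deficit of ATTGAT missed the threshold in both (exact McNemar tests, adjusted p = 0.251 in replicate 1 and 0.51 in replicate 2), as it did in the stronger 50% of IDR peaks (adjusted p = 0.0533), and that of TATAAA in replicate 2 (adjusted p = 0.185).

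ATCGAT and CTGCGTC were mostly at different peaks. Both lay at 9 members, either at 135 (29.9%) and neither at 317. CTGCGTC lay at 11.1% of members with ATCGAT and at 14.6% of those without. It was on the strand of the gene in 37 of 65 occurrences, or 56.9% (44.0 to 69.2%), an interval that includes equal shares. Of the sequences above, that of cec-4 holds both words, and those of tos-1, cdc-48.1, rpl-3 and cox-5A hold neither. No match says only that these letters are not in this window.

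In the IDR list, with 50 bp around the summit, only the GA word passed against other autosomal peaks. Its share in members lay between those of the other classes, and the calls changed with the setting. ATCGAT lay at 17.9% of member summits, against 12.9% of peaks with 2 or more genes (Fisher's exact test over peaks, adjusted p = 0.147 over 12 comparisons) and 21.1% of peaks with none (adjusted p = 0.607). CTGCGTC lay at 13.9%, against 9.36% and 20.3% (Fisher's exact test, adjusted p = 0.147 for both). With 100 bp around the summit instead of 50, ATCGAT passed against peaks with 2 or more genes (Fisher's exact test, adjusted p = 0.0485), as did CTGCGTC, in the same directions, against both classes (adjusted p = 0.00584 for both). With replicate 2 alone (its 1244 strongest peaks), the ratios to peaks with none turned, to 2.10 for ATCGAT and 1.29 for CTGCGTC, and neither passed (Fisher's exact test, adjusted p = 0.0739 and 0.531). GAGAGA lay at 24.1%, higher than the 15.5% of peaks with 2 or more genes (Fisher's exact test, adjusted p = 0.0196) and lower than the 39.7% of peaks with none (adjusted p = 5.03e-04). With the IDR list replaced by the strongest peaks of replicate 2, the ratio to peaks with 2 or more genes was 0.975 (Fisher's exact test, adjusted p = 0.915), and the difference from peaks with none missed the threshold there (adjusted p = 0.0884). The call against peaks with 2 or more genes also missed the threshold with the strongest peaks of replicate 1 (Fisher's exact test, adjusted p = 0.052), with 25 bp around the summit (adjusted p = 0.207) or in the stronger 50% of IDR peaks (adjusted p = 0.0956). Of the other 3 words none passed against either class (Fisher's exact tests, adjusted p from 0.438 to 0.87), but TTTCAG passed against peaks with 2 or more genes with 100 bp around the summit (ratio 0.607, adjusted p = 0.00101).

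**Figure D5:**
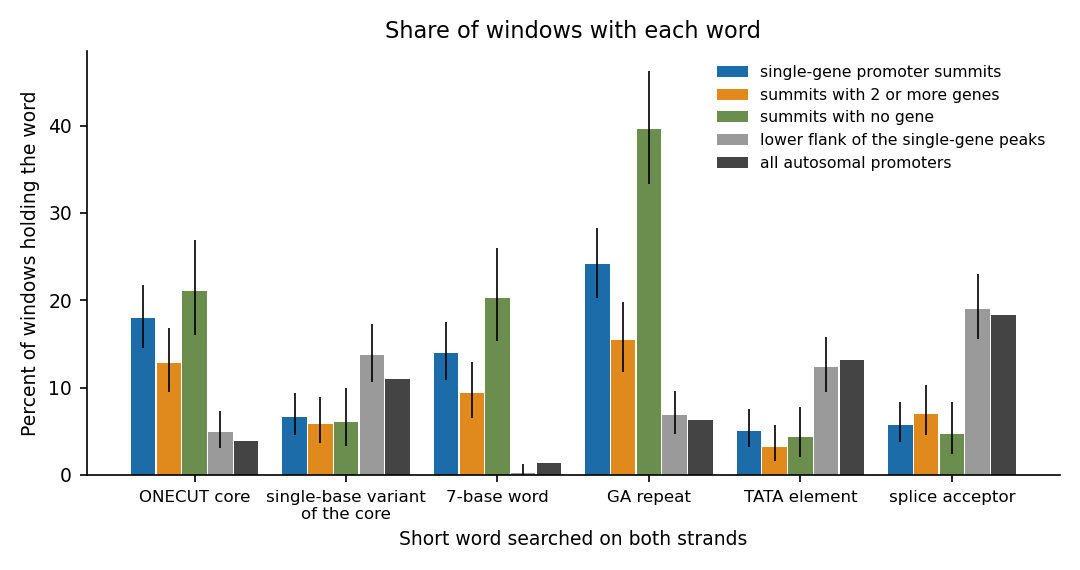
Percent of windows of 101 bp that hold each word on either strand (vertical axis) at single-gene promoter summits, at autosomal summits with 2 or more genes or none, in the lower flank of the single-gene peaks, and 244 bp upstream of all autosomal genes; lines are 95% exact intervals over peaks. The ONECUT core lies at 17.9% of single-gene summits against 4.87% of their flanks, and the GA repeat is highest at summits with no gene, at 39.7%.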

How the data were processed

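Binding was measured by ChIP-seq in 1 group of 2 biological replicates, as the labels give them. Per the deposited description files, relaxed peak lists that include background were called on each replicate and on both pooled, each against a control, and these 3 lists gave the IDR list. The aligner and the peak caller are not named in the sources used here. The signal value of each peak is the authors' deposited value of unstated scale; it was used to rank and describe peaks and never compared in size between lists. The authors' deposited −log10 q-value was used as given, with a q-value under 0.05 counted as passing. Lists in ce10 and the pooled list were not used, and no coordinates were converted. All peaks ended within the chromosomes of WBcel235.

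Starts, genes and exons came from Ensembl release 115 of WBcel235, and sequence came from RefSeq. The nearest start of a gene set the distance, and distinct start positions were counted as starts. A member was matched to the overlapping replicate peak with the nearest summit (at least 1 bp). Shares have Clopper-Pearson intervals. Words were tested between summit and flank by exact McNemar tests over 6 words, and between peak classes by Fisher's exact tests, with Benjamini-Hochberg adjustment and a threshold of 0.05. Peaks were the unit of these tests, so the p-values cover the spread between peaks and not between animals. The assignment of peaks and the word test were tested on simulated data. The members, the 27 gene lists (by symbol stems) and the words were chosen with earlier results of these data known. The genes named were the 12 strongest members, up to 6 genes with 2 peaks, the 6 strongest at inner starts, the 8 strongest with ATCGAT, the 4 strongest with a tandem neighbour under 500 bp away, up to 3 of each list, the 3 best and worst ranks in each replicate, and 2 at each edge of the window; further names, such as other list members, were chosen after their values were seen. Sequences were taken from the strongest members on chromosomes II to V whose window lay upstream of the start and outside exons. Python 3.11.15, numpy 2.4.6, scipy 1.17.1, pandas 2.3.3 and matplotlib 3.10.9 were used.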

Additional observations from a re-analysis of the deposited data

How the results depend on the processing

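Each result was recomputed with 1 choice changed at a time, giving 222 values, of which 159 kept their direction and their side of the threshold or stayed within the spread allowed. A window of 500 bp upstream moved the median distance to -188.5 bp. A window of 2000 bp moved it to -318 bp, the share of single-gene peaks to 37.3% of autosomal peaks and the ribosomal protein genes among the members to 9. Counting only the outermost start of each gene moved the median to -249.5 bp and, chosen after seeing the data, the genes with more than 1 start to 36.2%; merging starts within 50 bp gave 34.3%. Counting genes of any type gave a share of 39.6%. The stronger 50% of IDR peaks gave 207 members, or 40.6%. The strongest peaks of a single replicate gave 385 to 453 members, shares of 37.9% to 44.02% and median distances of -255 to -240 bp, the first of each pair without replicate 1.

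Covering 50% of the peak lowered the matched and passing members of replicate 1 to 92.5% and the matched ones of replicate 2 to 86.9%, while summits within 100 bp gave 79.9%. In replicate 1 it turned the differences in passing, to 0.373 percentage points against peaks with 2 or more genes and to -3.21 against peaks with none; neither passed (Fisher's exact test, adjusted p = 0.893 and 0.183). The ratio of ATCGAT shares to peaks with 2 or more genes passed with 100 bp around the summit (1.32, Fisher's exact test, adjusted p = 0.0485). With either replicate left out, ATCGAT had ratios to peaks with no gene of 0.788 to 2.10, turned without replicate 1, and the ratio of median signals was 0.889 to 1.06, below 1 without replicate 1. Other words turned without replicate 1 as well, with these ranges over the lists that leave out 1 replicate: CTGCGTC against peaks with no gene (0.624 to 1.29), TATAAA against the same (0.695 to 1.36) and GAGAGA against peaks with 2 or more genes (0.975 to 1.44). With 25 bp around the summit ATTGAT (0.880) and TTTCAG (0.684) turned against peaks with no gene, and ATTGAT (0.785) did so in the stronger peaks. None of these turned ratios passed. The excess of ATCGAT over the flank was 3.21 without replicate 2 and 2.21 without replicate 1 (exact McNemar tests, adjusted p = 2.03e-09 and 0.00762). The cause of these changes was not tested. No paired analysis was possible because there was 1 group.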

Other observations

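The words in this paragraph were picked after the summit sequences had been read, so they are given as counts with no test. AACGCGC or its complement GCGCGTT lay within 50 bp of the summit in 40 members (8.85%), against 2 lower flanks (0.442%), 42 peaks with 2 or more genes (12.3%), 9 peaks with none (3.88%) and 0.818% of the promoter windows of all autosomal genes. It lay at 8 of the 182 members with a q-value under 0.05 in replicate 2 (4.40%) and at 32 of the other 270 (11.9%). GAGCGCG or CGCGCTC lay at 41 members (9.07%) against 3 flanks, at 13.2% of members that passed in replicate 2 and at 6.30% of the others. GAGACGC or GCGTCTC lay at 65 members (14.4%) against 3 flanks, at 18.7% of members that passed and at 11.5% of the others. This word can share up to 5 bases with CTGCGTC or its complement.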
